A study of Mus musculus with 27 samples.

Results

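B-1 cells are a self-renewing arm of the B-cell lineage, best known from the body cavities, that makes much of the natural IgM of the mouse. Their B-1a subset carries CD5 on its surface, is held back by inhibitory receptors, and is a known source of the cytokine IL-10. Follicular (B-2) cells, the main B cells of spleen and lymph node, carry CD23, CD21 and IgD instead.

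The transcripts of 8 genes were followed here: the transcription factor genes Bhlhe41 and Bhlhe40, the surface molecule genes Cd5, Spn, Cd9 and Ctla4, the cytokine gene Il10 and the small-protein gene Plac8. They were listed by name for their ties to B-1 cells or, for Il10, to their known product, and all 8 were found among the 30735 genes of the deposited table. RNA was sequenced from 27 samples of mouse B cells purified by B220, a pan-B-cell surface marker. They comprised 19 lymphomas of c-myc Igh transgenic mice, 4 splenic B-cell samples stimulated for 2 days with LPS (a bacterial lipid that activates B cells), and 4 unstimulated splenic B-cell samples, called resting below. The LPS group and the resting group each held 1 sample of the genotypes wt, cr, co and hv, so 3 of the 4 samples in each control group carried a c-myc Igh transgene too. The lymphomas came from hv mice (7), cr mice (7) and co mice (4), and 1 more, Lung.hv.T39, is titled hv but described as CO and was kept out of comparisons between lines. They were taken from lung (12), mesenteric lymph node (MLN, 4) or peripheral lymph node (PLN, 3). The labels do not say what hv, cr and co stand for, nor give the age of the animals, whether samples came from separate mice or which cells express the transgene. The p-values below therefore measure the spread between these samples, which may in part be technical.

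Libraries held about 11531400 to 32032600 read pairs, as recovered from the steps of the values. Values are TPM, each transcript's share of all transcripts in its library, corrected for length. Summed TPM of 10 B-cell markers was 1404 to 4158 in lymphomas, 1120 to 2261 in LPS samples and 2860 to 5364 in resting samples. Gm10800, a repeat-like predicted gene, took over 1% of TPM in 4 libraries (MLN.cr.T6, cr LPS, hv LPS and wt resting), up to 18.6% in cr LPS. Results were recomputed without these libraries. Gm20594, also counted as repeat-like, took a large share in every library, from 10.9% of TPM in cr LPS to 34.3% in MLN.cr.T35. It was taken out in the recomputation without repeat-like, haemoglobin and immunoglobulin genes given below. Red-cell precursor markers (6 genes) summed to 16.2 to 1126 TPM in lymphomas, 164 to 2212 TPM in LPS samples and 11640 to 111337 TPM in resting samples. Macrophage and monocyte markers (12 genes) summed to 16.4 to 507 TPM in lymphomas, 11.7 to 76.5 TPM in LPS samples and 210 to 1143 TPM in resting samples. The part of these other cells in differences from resting samples was not tested, beyond the recomputation without haemoglobin genes given below. In bulk samples fewer cells of a type and less RNA per cell cannot be told apart.

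Bhlhe41 was the member that separated the lymphomas from all other samples, and its relative Bhlhe40 went the other way. Against resting B cells, 1 of the 8 members was higher in lymphomas (Bhlhe41) and 1 was lower (Bhlhe40), where 31.9% of 13239 tested genes were called, 14.5% higher and 17.4% lower. Against LPS-stimulated cells, Bhlhe41 was higher and Il10 was lower in lymphomas, where 13.8% of 12880 tested genes were called, 5.27% higher and 8.56% lower. With 2 of 8 members called in each comparison, the counts were too small to be read against these shares. The median log2 fold change of the 8 members was 0.078 against resting cells, beside -0.064 over all tested genes, and -0.14 against LPS samples, beside 0.028 over all tested genes. The count over all genes depended on single controls: it was 4229 against resting cells but 2749 without the wt sample, and 1782 against LPS samples but 1103 without wt, 835 without co and 821 without hv.

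**Figure D1:**
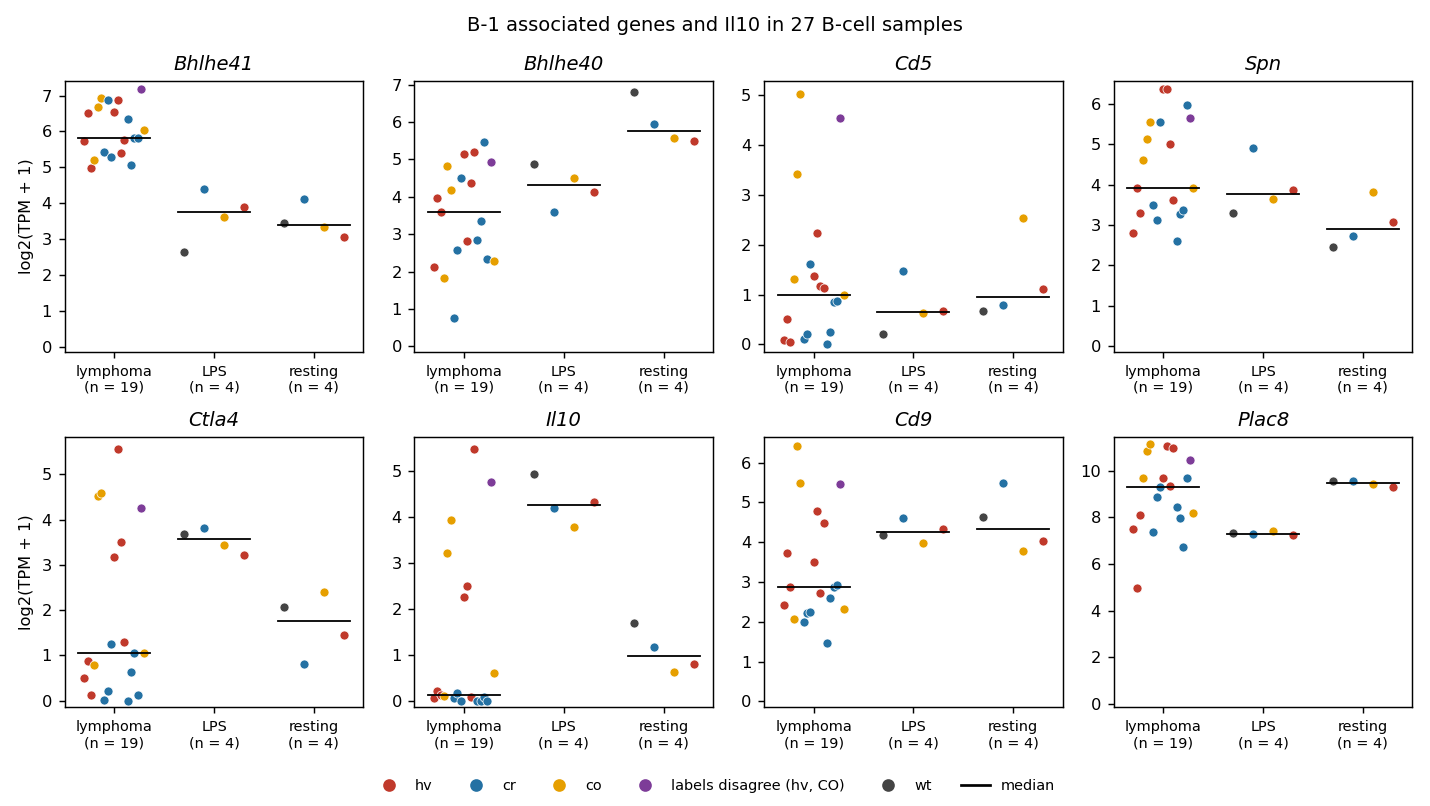
Level of each of the 8 genes as log2(TPM + 1) in every sample, with 19 lymphomas, 4 LPS and 4 resting samples side by side; points are samples coloured by genotype and black lines are group medians. All 19 Bhlhe41 points of the lymphomas lie above those of the other samples, while Il10 has 6 lymphomas well apart from the other 13.

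Bhlhe41 encodes DEC2, a basic helix-loop-helix repressor that binds E-box motifs and is required for normal B-1a cells in mice. The gene (ENSMUSG00000030256) lies on the minus strand at chr6:145858243-145865558 of GRCm38. Its promoter is shown because this is the one member called in the same direction against both control groups, and E-boxes are the motif that DEC factors are known to bind. The 112 bases just upstream of its deposited transcripts (chr6:145865559-145865670, minus strand, RefSeq promoter table of GRCm38.p6) read 5′ to 3′, with the E-box CACGTG in capitals:
Bhlhe41 promoter: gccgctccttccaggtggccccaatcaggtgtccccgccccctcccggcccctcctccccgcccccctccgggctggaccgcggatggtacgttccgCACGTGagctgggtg
Promoter entries existed for 6 of the 8 members (not Il10 and Bhlhe40). An E-box CACGTG, which reads the same on both strands, was found in the upstream window of Bhlhe41 only, and in 6.02% of 32851 promoter windows of 250 bases. The AP-1 motif TGANTCA (6.75% of windows) and the STAT motif TTCNNNGAA (7.02%), both searched on both strands, had no match in the members' windows. Such a match is a description of the letters, not evidence of binding.

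Bhlhe41 had 30.5 TPM in the lowest lymphoma, 55.9 TPM in the median and 144 TPM in the highest. It had 5.22, 20.1, 11.2 and 13.8 TPM in the wt, cr, co and hv LPS samples. It had 9.97, 16.4, 9.04 and 7.29 TPM in the wt, cr, co and hv resting samples. Every lymphoma stood above every control sample. How many of all tested genes separated in this way was not counted. In Bhlhe41 the lymphomas were evenly spread with no gap among them (their largest gap took 14.5% of the range). The log2 fold change was 2.54 ± 0.35 (SE) against resting cells (limma, adjusted p = 5.7e-06) and 2.39 ± 0.37 against LPS samples (limma, adjusted p = 6.9e-05). The names of 9 lymphomas, all from lung, run their parts together, while those of the other 10 separate them, and this naming style was treated as a possible batch. Bhlhe41 was higher than in resting cells within both styles, by 2.47 in the joined and 2.60 in the separated names (log2). Against resting cells, LPS samples showed a log2 difference of 0.14 ± 0.37 (limma, adjusted p = 0.75), which leaves an interval of -0.67 to 0.96. Both Bhlhe41 transcripts were seen in all 3 groups: the longer one gave a median of 42.7% of the gene's TPM in lymphomas, 48.5% in LPS samples and 53.9% in resting samples.

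Bhlhe40 encodes DEC1, the closest relative of DEC2, which shares its E-box binding and, in B cells of the mouse, part of its role. It lies on the plus strand at chr6:108660629-108666925. It had 0.68 TPM in the lowest lymphoma (Lung.cr.T9), 10.96 TPM in the median and 43.0 TPM in the highest (MLN.cr.T6). The wt, cr, co and hv LPS samples had 28.5, 11.1, 21.6 and 16.6 TPM. The resting samples had 110, 60.7, 46.9 and 43.6 TPM in the same order of genotypes. All lymphomas and all LPS samples were below the lowest resting sample, while lymphomas and LPS samples overlapped. The log2 fold change against resting cells was -2.42 ± 0.65 in lymphomas (limma, adjusted p = 0.0064) and -1.67 ± 0.34 in LPS samples (limma, adjusted p = 0.0018). Without the 4 libraries rich in Gm10800 the LPS difference was -0.98. These comparisons share the resting samples. Against LPS samples the lymphomas differed by -0.75 ± 0.65 (limma, adjusted p = 0.48). Within the 2 name styles Bhlhe40 was lower than in resting cells by -2.80 (joined) and -2.08 (separated), both called.

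**Figure D2:**
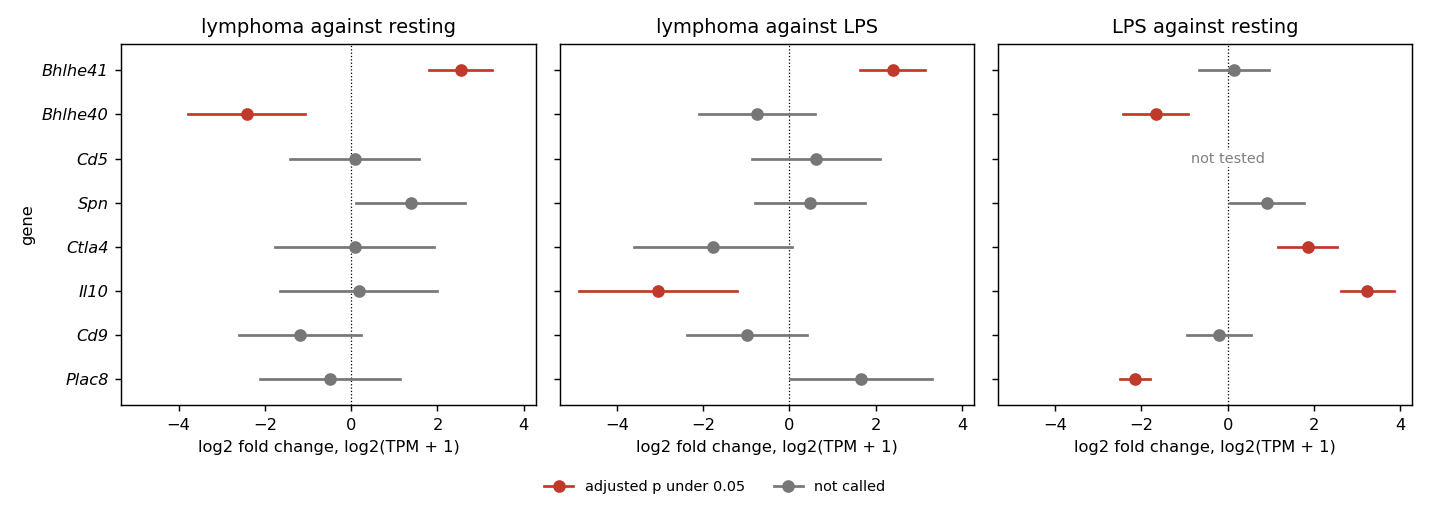
Log2 fold change of each gene on the log2(TPM + 1) scale for lymphoma against resting, lymphoma against LPS and LPS against resting; points are limma estimates, bars their 95% confidence intervals, red an adjusted p under 0.05. Bhlhe41 is the gene in red on the right in both lymphoma panels; Cd5 was too low to be tested in the LPS against resting panel.

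Il10 encodes the cytokine by which B-1 and regulatory B cells dampen inflammation. The gene lies on the plus strand at chr1:131019845-131024974 and has 1 transcript in the table. Il10 had 12.6 to 29.5 TPM in LPS samples (29.5 in wt, 17.2 in cr, 12.6 in co, 18.9 in hv). It had 2.20, 1.24, 0.547 and 0.735 TPM in the wt, cr, co and hv resting samples. All LPS samples stood above all resting samples, and the log2 fold change was 3.23 ± 0.28 (limma, adjusted p = 3.0e-06).

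The lymphomas split in Il10. PLN.hv.T8 had 43.4 TPM, Lung.hv.T39 26.1 TPM, Lung.co.T34 14.2 TPM, Lung.co.T30 8.24 TPM, PLN.hv.T15 4.65 TPM and Lung.hv.T16 3.75 TPM. All 6 were above every resting sample, and PLN.hv.T8 was above every LPS sample too. The other 13 lymphomas had 0.52 TPM or less, below every resting sample, and 4 of them were listed at 0 (Lung.cr.T14, MLN.cr.T1, MLN.cr.T35 and MLN.cr.T20), where 3 read pairs would have been 0.111 to 0.185 TPM. None of the 7 cr lymphomas passed 0.124 TPM. The mean over all lymphomas therefore describes few of them: it differed from resting cells by 0.18 ± 0.88 (limma, adjusted p = 0.90) and from LPS samples by -3.06 ± 0.89 (limma, adjusted p = 0.023). The second call was lost when any 1 LPS sample was left out (adjusted p of 0.052 to 0.084), without the libraries rich in Gm10800 (0.22), and within the separated names (0.089; log2 difference -2.72), and it held within the joined names (0.0056; -3.43).

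Ctla4 encodes the inhibitory receptor CTLA-4, best known from T cells and present on mouse B-1a cells. Its locus is chr1:60887000-60915832, plus strand. It had 8.24 to 13.1 TPM in LPS samples and 0.753 to 4.31 TPM in resting samples, without overlap, a log2 fold change of 1.85 ± 0.31 (limma, adjusted p = 0.00042). In lymphomas it had 46.1 TPM in PLN.hv.T15, 23.0 in Lung.co.T34, 22.0 in Lung.co.T30, 18.1 in Lung.hv.T39, 10.3 in Lung.hv.T7 and 7.99 in Lung.hv.T16. These 6 were above every resting sample, and 5 of them were among the 6 lymphomas highest in Il10. The other 13 had 0 to 1.47 TPM, PLN.hv.T8 with its high Il10 being the upper of them at 1.47 TPM. Over all lymphomas the difference was 0.078 ± 0.89 from resting cells (limma, adjusted p = 0.95) and -1.77 ± 0.89 from LPS samples (limma, adjusted p = 0.19).

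Cd5 encodes the surface receptor that defines B-1a cells and that T cells carry too. The gene lies on the minus strand at chr19:10718143-10738974. It was low in most samples: the median lymphoma had 0.995 TPM, LPS samples had 0.162 to 1.76 TPM and resting samples 0.588 to 4.79 TPM. In lymphomas 3 samples stood apart, with 31.8 TPM in Lung.co.T34, 22.4 TPM in Lung.hv.T39 and 9.73 TPM in Lung.co.T30. The next was PLN.hv.T15 at 3.73 TPM, below the co resting sample at 4.79 TPM, and the lowest was MLN.cr.T1, listed at 0. The groups overlapped, and no difference was called (0.079 ± 0.73 against resting, adjusted p = 0.95; 0.61 ± 0.72 against LPS, adjusted p = 0.62; both limma). Cd5 did not reach 1 TPM in 4 samples of LPS and resting cells together, so that comparison covered 7 of the 8 members.

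T cells carry Cd5 and Ctla4, so the T-cell markers of the same samples are given beside them. The 12 markers summed to 1.84 to 162 TPM in lymphomas, 4.54 to 16.4 TPM in LPS samples and 17.2 to 154 TPM in resting samples. The co resting sample, highest of its group in Cd5, Ctla4 and Spn, was also highest in this sum, with Cd3e at 3.62 TPM and Trac at 29.9 TPM. Lung.co.T34 had less of both of these genes (Cd3e 1.09 and Trac 7.20 TPM) with more Cd5, and 2 of the 12 markers, Cd3g and Cd8b1, above the co resting sample. Lung.hv.T39 had Cd3e at 1.30 TPM and Trac at 4.79 TPM, with Cd3d (31.8 TPM, beside 9.48 TPM in co resting), Cd3g and Cd8b1 above the co resting sample. Lung.co.T30 had Cd3e at 0.416 TPM and Trac at 2.25 TPM, with Cd3g and Cd8b1 above it. PLN.hv.T15, highest in Ctla4, had Cd3e listed at 0 and Trac at 0.675 TPM, with Cd28 (11.6 TPM) above the co resting sample. It was the highest lymphoma in Cd28 and in Cd4 (4.88 TPM). The largest single marker was Cd3g in Lung.hv.T39 (96.5 TPM), Lung.co.T34 (63.6 TPM) and MLN.cr.T20 (59.2 TPM), and Cd247 in Lung.cr.T14 (55.6 TPM), Lung.hv.T7 (28.5 TPM) and MLN.cr.T6 (24.5 TPM). Of the 12 markers, 5 (Cd3e, Cd4, Cd8a, Trbc2 and Themis) had 5 of their 6 highest lymphomas in common with Il10. The part of T cells in the levels of Cd5, Ctla4 and Il10 was not tested. Macrophage and monocyte markers (12 genes) summed to 363 TPM in PLN.hv.T15, 336 in Lung.hv.T16, 187 in Lung.co.T34 and 151 in PLN.hv.T8. They summed to 120 TPM in Lung.hv.T39 and 111 in Lung.co.T30, which completes the 6 lymphomas highest in Il10. Lung.co.T9, with Il10 at 0.0695 TPM, had 507 TPM of these markers, and the other lymphomas had 98.9 TPM or less. The part of macrophages in the level of Il10 was not tested either.

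Spn encodes CD43, a sialic-acid-rich surface protein that B-1 cells keep and resting follicular cells lack. Its locus is chr7:127132232-127137823, minus strand. It had 5.05 TPM in the lowest lymphoma, 14.1 TPM in the median and 81.8 TPM in the highest. LPS samples had 8.81, 28.8, 11.5 and 13.6 TPM (wt, cr, co, hv) and resting samples had 4.46, 5.61, 13.2 and 7.41 TPM. Although 11 of 19 lymphomas were above the highest resting sample, none was below the lowest. Lung.hv.T16, PLN.hv.T15 and MLN.cr.T20 led with 81.8, 81.5 and 61.3 TPM. The difference from resting cells, 1.38 ± 0.61, was not called (limma, adjusted p = 0.087), nor was that from LPS samples (0.47 ± 0.62, adjusted p = 0.66). Between LPS and resting samples the difference was 0.91 ± 0.38 (limma, adjusted p = 0.067). That value passed the threshold once the co samples were left out of both groups, an alternative chosen after seeing the data (1.27, adjusted p = 0.016).

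Cd9 encodes a tetraspanin, a membrane organiser found on B-1, marginal zone and antibody-forming cells. Cd9 lies on the minus strand at chr6:125460266-125494791. It had 1.75 TPM in the lowest lymphoma, 6.34 TPM in the median and 83.8 TPM in the highest. LPS samples had 14.9 to 23.4 TPM and resting samples 12.8 to 43.5 TPM. In 14 of 19 lymphomas Cd9 was below the lowest resting sample. It was highest in Lung.co.T30 at 83.8 TPM, Lung.co.T34 at 44.1 TPM and Lung.hv.T39 at 43.4 TPM, followed by PLN.hv.T15 at 26.8 TPM and PLN.hv.T8 at 21.5 TPM. Neither lymphoma comparison was called (-1.18 ± 0.68 against resting, adjusted p = 0.19; -0.98 ± 0.67 against LPS, adjusted p = 0.36; both limma). LPS against resting differed by -0.20 ± 0.33 (limma, adjusted p = 0.63).

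Plac8 encodes a small cysteine-rich protein of many white blood cells, and was the most abundant member per length in each group. The gene lies on the minus strand at chr5:100553725-100572245. It had 151 to 169 TPM in LPS samples and 633 to 757 TPM in resting samples, both narrow and without overlap, a log2 fold change of -2.15 ± 0.16 (limma, adjusted p = 8.8e-07). The lymphomas covered a far wider range, with 30.03 TPM in Lung.hv.T5, a median of 632 TPM and 2288 TPM in Lung.co.T34. PLN.hv.T15 (2127 TPM), PLN.hv.T8 (2027 TPM), Lung.co.T30 (1857 TPM) and Lung.hv.T39 (1400 TPM) followed, and 8 lymphomas were above and 10 below all resting samples. Over the group the difference was -0.49 ± 0.79 from resting cells (limma, adjusted p = 0.66) and 1.66 ± 0.79 from LPS samples (limma, adjusted p = 0.17).

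In LPS against resting cells, 2 of 7 tested members were higher (Il10, Ctla4) and 2 lower (Plac8, Bhlhe40), where 58.2% of 11999 tested genes were called, 25.2% higher and 33.0% lower. With all 27 samples in 1 fit, where the spread of the lymphomas sets the error of the controls, Il10 alone was called, and the adjusted p was 0.19 for Ctla4, 0.081 for Plac8 and 0.11 for Bhlhe40. The fold changes are the same in both fits by construction, and only their errors differ. The split of calls over all genes depended on the scaling: 43.3% of the calls were higher in LPS samples as deposited, 53.9% after median-of-ratios scaling and 36.7% after removing repeat-like, haemoglobin and immunoglobulin genes. The median of all genes was -0.16, 0.034 and -0.31 (log2) under these 3 scalings. In lymphoma against resting the share was 45.4%, 50.5% and 32.5%, with medians of -0.064, 0.024 and -0.19. The calls on members named above held under both scalings.

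Which lymphomas look like B-1 cells was described by counting, in each lymphoma, the members above the highest resting sample. Lung.co.T30 and Lung.co.T34 had 7 of 8 members above it, all but Bhlhe40, where 39.1% and 44.8% of the 13239 tested genes were above it in the same lymphomas. Lung.hv.T39 had 6 (43.9% of all tested genes), and Lung.hv.T16 and PLN.hv.T15 had 5 each (33.4% and 35.4%). Over the 19 lymphomas this share of all tested genes ran between 23.3% (MLN.cr.T6) and 48.5% (Lung.hv.T5, with 2 members). PLN.hv.T8, Lung.co.T9, Lung.hv.T7 and MLN.cr.T20 had 3, another 3 lymphomas had 2, and the other 7 had Bhlhe41 alone. Of these last 7, 5 were cr lymphomas. Members above every resting and every LPS sample numbered 6 in Lung.co.T30 and Lung.co.T34, 5 in Lung.hv.T39 and 4 in PLN.hv.T15. They numbered 3 in Lung.hv.T16, PLN.hv.T8 and MLN.cr.T20, 2 in another 3 lymphomas and 1, Bhlhe41, in the other 9. The share of all tested genes above both control groups was not counted. Cd5 and Il10 were both above all resting samples in 3 lymphomas, Lung.co.T30, Lung.co.T34 and Lung.hv.T39. In bulk samples these transcripts need not come from the same cells. The reverse count, members below the lowest resting sample, was 1 in Lung.co.T30, Lung.co.T34, PLN.hv.T15, PLN.hv.T8 and Lung.hv.T39 and 6 in 6 of the others. Of all tested genes, 21.5% (Lung.co.T34) to 52.5% (MLN.cr.T35) were below it.

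**Figure D3:**
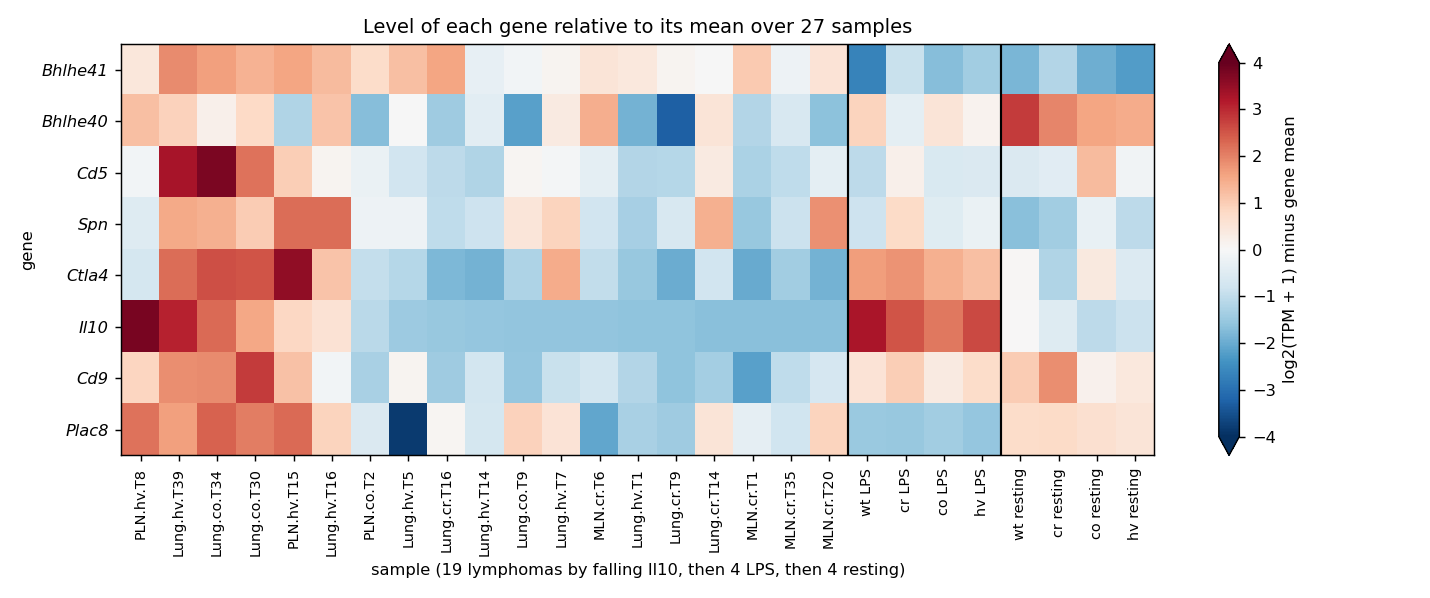
Each of the 8 genes (rows) in 27 samples (columns: lymphomas by falling Il10, then LPS, then resting) as log2(TPM + 1) minus the gene's mean over all samples, red for higher and blue for lower. The 6 leftmost lymphomas, with Il10 at 3.75 TPM or more, also carry most of the red in Cd5, Ctla4, Cd9 and Plac8, and the Bhlhe41 row is red or pale in lymphomas and blue in controls.

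No correlation over all 19 lymphomas is given for the members, because Il10 divides them into 6 and 13. Within the 6, 28 pairs of members were compared, and within the 13, 15 pairs (those with 1 TPM or more in at least 4 samples). No pair passed an adjusted p of 0.05 by Pearson's r or Spearman's rho, in exact permutation tests over the 6 or permutation tests over the 13. Under an unadjusted 0.05 there were 2 pairs by each measure within the 6, and 0 within the 13. By Pearson's r they were Spn with Il10 (Pearson r = -0.81, exact permutation p = 0.032, adjusted 0.47; Spearman rho = -0.77, exact permutation p = 0.10; r = -0.41 without the 2 lymphomas farthest from the median of Spn) and Bhlhe41 with Ctla4 (Pearson r = 0.86, exact permutation p = 0.040, adjusted 0.47; Spearman rho = 0.60, exact permutation p = 0.24; r = 0.81 without the 2 farthest). By Spearman's rho they were Bhlhe40 with Ctla4 (rho = -1, exact permutation p = 0.0028, the smallest that 6 samples can give, adjusted 0.078; Pearson r = -0.74, exact permutation p = 0.11; r = -0.89 without the 2 farthest) and Bhlhe41 with Cd5 (rho = 0.89, exact permutation p = 0.033, adjusted 0.47; Pearson r = 0.76, exact permutation p = 0.050; r = 0.68 without the 2 farthest).

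The ranges of all 8 members overlapped between the 3 lines, and between each lymph node site and lung. Between the node sites 3 members did not overlap: Il10 had 0.52 to 43.4 TPM in the 3 peripheral-node and 0 to 0.0584 TPM in the 4 mesenteric-node lymphomas, Cd5 had 0.995 to 3.73 and 0 to 0.837 TPM, and Ctla4 had 1.09 to 46.1 and 0 to 1.07 TPM. That contrast was not tested, and its node sites hold different lines (hv and co against cr). The share of all tested genes without overlap between the node sites was not counted, so these 3 of 8 members have no background beside them. In fits of line and site together over 18 lymphomas, limma called 0 of 8 members and 0 of 12480 genes (0%) for hv against cr, co against cr, co against hv and mesenteric node against lung, with 170, 337, 393 and 209 genes under an unadjusted p of 0.05. Peripheral node against lung gave 2 genes (0.016%), no member among them, and 628 under an unadjusted 0.05. Cd5 was the one member under an unadjusted 0.05, with log2 differences of 2.07 ± 0.81 for co against cr (limma, adjusted p = 0.998) and 1.75 ± 0.65 for co against hv (limma, adjusted p of 0.999995). Cd5 had 0.995 to 31.8 TPM in the 4 co lymphomas, 0.027 to 3.73 TPM in the 7 hv lymphomas and 0 to 2.05 TPM in the 7 cr lymphomas. Ctla4 reached 23.0 TPM in co, 46.1 TPM in hv and 1.36 TPM in cr lymphomas, and Cd9 reached 83.8 TPM in co, 26.8 TPM in hv and 6.66 TPM in cr lymphomas. All 4 mesenteric-node lymphomas were cr and none of the peripheral-node ones was, so site and line cannot be told apart between the nodes.

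Other genes tied to B-1 cells were read from a list of 20. Over the 19 tested against resting cells, the median log2 fold change was -0.68 beside -0.064 over all genes. By limma 1 was higher in lymphomas and 0 lower, beside 14.5% and 17.4% of all tested genes. The gene was Arid3a, a DNA-binding protein needed for B-1a development in the mouse, with 8.16, 18.6 and 38.3 TPM in the lowest, median and highest lymphoma, 21.5 to 28.7 TPM in LPS samples and 6.19 to 8.96 TPM in resting samples. It was above all resting samples in 18 of 19 lymphomas (1.22 ± 0.27, limma, adjusted p = 0.0011). Against LPS samples the median of the 18 tested was 0.012 beside 0.028. Here 1 of 18 was higher in lymphomas and 0 lower, beside 5.27% and 8.56% of all tested genes. This was the intermediate filament gene Vim (1.32 ± 0.41, limma, adjusted p = 0.031), named after its value was seen. In LPS against resting cells 5 of 18 were higher and 7 lower, where 25.2% of all tested genes were higher and 33% lower. The median was -0.76 beside -0.16, and neither count was far from its share. The 5 were Zbtb32, Arid3a, Tnfrsf13b, Fcrl5 and Igf2bp3, also named after their values were seen, at log2 fold changes of 5.13 ± 0.30, 1.61 ± 0.18, 1.31 ± 0.26, 1.01 ± 0.30 and 0.58 ± 0.23.

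The 6 highest lymphomas of each of these 20 genes were set beside the 6 highest in Il10. All 6 were shared by 5 genes, 5 by 6 genes, 4 by 2 genes, 3 by 4 genes (Arid3a among them), 2 by Itgam, and 0 by Zap70 and Igf2bp3. Among the other 13238 tested genes, 2.08% shared all 6 and 9.14% shared 5. Of the 12 T-cell markers, 0 shared all 6 and 5 shared 5. Such sharing was not particular to the B-1 list. Cd80 and Cd274 among the ligands and relatives of CTLA-4, and Tyk2 and Bcl3 among the genes around Il10, shared all 6 too. Others of those lists shared fewer, down to 2 for Socs3. These, and the B-1 genes described next, are named after their values were seen. Zbtb32, a transcriptional repressor of activated and B-1 cells, had 151 to 250 TPM in 6 lymphomas and 18.5 TPM or less in the others, and those 6 were the 6 highest in Il10. LPS samples had 108 to 222 TPM and resting samples 1.49 to 4.62 TPM. Fcrl5, an Fc-receptor-like inhibitory receptor of B-1 and marginal zone cells, had 86.6 to 174 TPM in the same 6 and 7.46 TPM or less in the others, against 36.5 to 71.6 TPM in LPS samples and 15.4 to 35.5 TPM in resting samples. Il5ra, the IL-5 receptor chain of B-1 cells, had 22.6 to 74.3 TPM in 5 of the 6 but 0.977 TPM in Lung.hv.T16. The phosphatase gene Ptpn22 also had its 6 highest lymphomas in common with Il10, though with a smaller step between the sixth, 55.2 TPM, and the seventh, 49.6 TPM. Pdcd1lg2, which encodes PD-L2 and marks many B-1a cells, was led by PLN.hv.T15 at 41.2 TPM and Lung.hv.T16 at 32.4 TPM, and 5 of its 6 highest lymphomas were among the 6 of Il10. Over all lymphomas none of these 5 was called against resting cells.

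**Figure D4:**
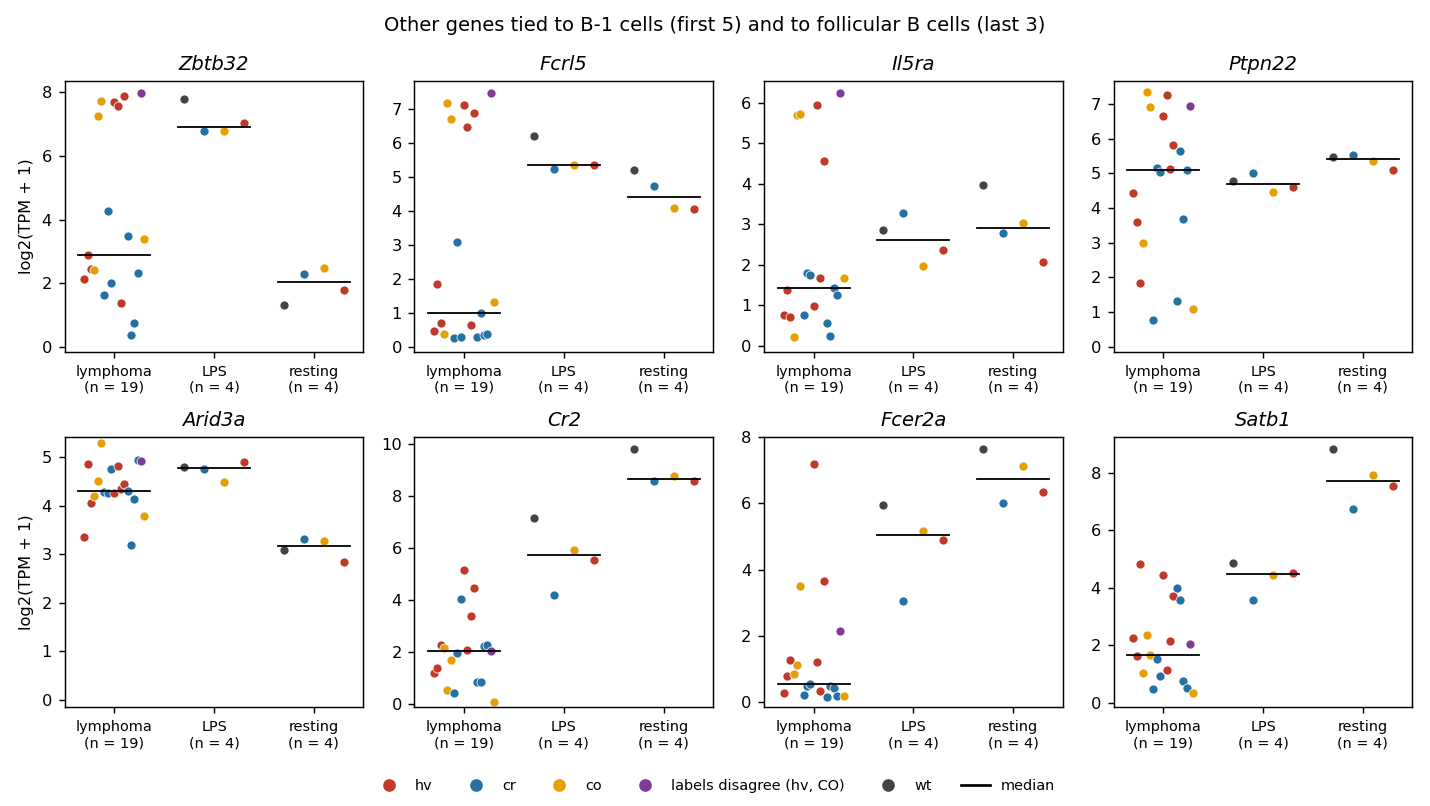
Level as log2(TPM + 1) of 5 other genes tied to B-1 cells and 3 genes of follicular B cells in 19 lymphomas, 4 LPS and 4 resting samples; points are samples coloured by genotype and black lines are medians. Zbtb32 and Fcrl5 split the lymphomas into 6 high and 13 low, and Cr2 and Satb1 are lower in all lymphomas than in all resting samples.

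The genes of follicular B cells were lower in lymphomas. All 10 of the follicular list passed the test in that direction against resting cells, with a median of -2.59 beside -0.064 over all genes. Of all tested genes, 17.4% were lower in that comparison. Cr2, which encodes the complement receptor CD21, averaged 5.90 ± 8.87 TPM in lymphomas and 525 ± 252 TPM in resting cells (SD, n = 19 and 4), a log2 fold change of -6.89 ± 0.67 (limma, adjusted p = 3.0e-08). Satb1, a chromatin organiser, averaged 5.87 ± 7.73 and 245 ± 149 TPM (-5.67 ± 0.69, limma, adjusted p = 1.1e-06). Fcer2a, which encodes CD23, fell by 5.45 ± 0.85 (log2; limma, adjusted p = 3.3e-05), but Lung.hv.T16 kept 144.8 TPM, within the resting range of 64.3 to 199 TPM. Cxcr5, the receptor that guides B cells to follicles, was at -2.94 ± 0.95 (limma, adjusted p = 0.020). Its call was lost without the libraries rich in Gm10800 (-2.70, adjusted p = 0.089), without wt resting (0.076) or without co resting (0.058), and its 6 highest lymphomas were again the 6 highest in Il10. In LPS against resting samples 9 of the 10 follicular genes were lower and 0 higher, beside 33% of all tested genes lower. Low values were thus not particular to the lymphomas. Of the marginal zone list, 7 of 10 were lower in lymphomas than in resting cells and 0 higher (median -1.95). Of all tested genes, 17.4% were lower and 14.5% higher there. In LPS against resting samples 8 of the 10 were lower and 1 higher, beside 33% and 25.2% of all tested genes. Cd36, Asb2 and Cd1d1 were among the genes lower in lymphomas, at -2.99, -2.53 and -2.21. The call on Cd36 was lost, with folds as large, without the libraries rich in Gm10800 (-2.92, adjusted p = 0.11) and within the separated names (-3.12, 0.077). It was lost too with a pseudocount of 0.1, without a filter, and without any 1 of the 4 resting samples (adjusted p of 0.057 to 0.13).

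Of the receptor, signalling and regulator genes around Il10, 6 of 11 were lower in lymphomas than in resting cells and 0 higher (median -1.03), beside the lower macrophage markers given above. Over all tested genes 17.4% were lower and 14.5% higher in that comparison. Maf, a transcription factor that drives Il10, averaged 0.509 ± 0.338 TPM in lymphomas and 5.004 ± 2.03 TPM in resting cells (SD, n = 19 and 4), at -1.95 ± 0.21 (limma, adjusted p = 1.5e-07). The receptor chain gene Il10ra averaged 28.1 ± 13.9 and 85.9 ± 22.7 TPM (-1.72 ± 0.40, limma, adjusted p = 0.0018), and the kinase gene Jak1 and second chain gene Il10rb were at -1.44 and -1.36. Of 10 genes tied to regulatory B cells, 4 were lower and 0 higher (median -0.68), beside the same shares of all tested genes. The 4 were Cd274, Cd1d1, Lag3 and Tgfb1 at -2.55, -2.21, -1.13 and -0.75. Tgfb1 lost its call without the libraries rich in Gm10800 (adjusted p = 0.082), without wt resting (0.073) or without co resting (0.057), and Lag3 without cr resting (0.097), without hv resting (0.060) or with joined names (0.065). Ebi3, a subunit of IL-27 and IL-35 named after its values were seen, had 2.62 to 30.2 TPM in the 6 lymphomas highest in Il10 and 0.432 TPM or less in the others. In LPS against resting cells 2 of 11 genes of the Il10 list were higher (Nfil3 and Prdm1, at 2.07 ± 0.31 and 2.27 ± 0.29) and 5 lower. Of all tested genes, 25.2% were higher and 33% lower in that comparison.

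Of the ligands and relatives of CTLA-4, 3 of 7 tested genes were lower in lymphomas than in resting cells and 0 higher (median -1.44). Among all tested genes 17.4% were lower and 14.5% higher. Icosl, the ICOS ligand gene, averaged 6.59 ± 7.34 and 75.1 ± 24.6 TPM in lymphomas and resting cells (SD, n = 19 and 4), at -3.87 ± 0.65 (limma, adjusted p = 8.2e-05). Cd86, a ligand of CTLA-4, was at -2.49 ± 0.68 (limma, adjusted p = 0.0066), and Cd274 was the third. Of the tetraspanins and partners of CD9, 3 of 13 were lower and 0 higher (median -0.69), Tspan33 at -4.50 ± 0.31, Cd82 at -3.42 ± 0.64 and Tspan13 at -2.53 ± 0.62. Cd9 is not on that list. This share of lower genes was near the 17.4% of all tested genes. Of the circadian genes around the DEC factors, 4 of 12 were lower and 0 higher (median -0.42), beside 17.4% of all tested genes lower. They were Per1 at -2.13 ± 0.39 (limma, adjusted p = 0.00019), Ciart at -1.54, Cry2 at -0.81 and Nr1d2 at -0.78. The last 3 were not called without the libraries rich in Gm10800 or without wt or cr resting. Per1 averaged 28.3 ± 14.5 TPM in lymphomas, 6.26 ± 0.945 TPM in LPS samples and 119 ± 52.8 TPM in resting cells. Of 10 inhibitory co-receptors and phosphatases of the B-cell receptor, Cd22 and Inpp5d were lower in lymphomas (-1.24 and -0.71) and 0 higher (median -0.77), a share again near the 17.4% of all tested genes. Both lost their call without the libraries rich in Gm10800 (adjusted p = 0.10 and 0.099) and without wt resting (0.091 and 0.084), and Cd22 also without co resting (0.0501).

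B-1a cells are also known for a few antibodies shared between animals, such as the pair of the variable genes Ighv11-2 and Igkv14-126, which binds phosphatidylcholine. In PLN.co.T2 Ighv11-2 had 967 TPM, 93.8% of the TPM of all heavy-chain variable genes, and Igkv14-126 had 1828 TPM, 91.0% of the TPM of all kappa variable genes. Its near relative Ighv11-1 had 1.63 TPM there. In the other 18 lymphomas Ighv11-2 had 0 to 0.35 TPM, and it had 1.13 to 20.6 TPM in LPS samples and 1.19 to 5.10 TPM in resting samples. Igkv14-126 was next in Lung.cr.T9 with 257 TPM, 16.2% of the kappa TPM, beside 14.4 to 44.6 TPM in LPS samples and 15.7 to 30.9 TPM in resting samples. PLN.co.T2 was not among the lymphomas high in the members: Bhlhe41 and Spn, at 64.3 and 14.1 TPM, were its only members above the highest resting sample, with Cd5 at 0.995 TPM, Ctla4 at 1.09 TPM, Il10 at 0.52 TPM and Plac8 at 295 TPM. Both germline segments are printed because together they name the receptor of this lymphoma. They are the last bases, up to 300, of the GENCODE M21 exons (GRCm38), 5′ to 3′, with Ighv11-2 on the minus strand at chr12:114048241-114048540 and Igkv14-126 on the plus strand at chr6:67896345-67896642, all in lower case because no part of them is singled out:
Ighv11-2: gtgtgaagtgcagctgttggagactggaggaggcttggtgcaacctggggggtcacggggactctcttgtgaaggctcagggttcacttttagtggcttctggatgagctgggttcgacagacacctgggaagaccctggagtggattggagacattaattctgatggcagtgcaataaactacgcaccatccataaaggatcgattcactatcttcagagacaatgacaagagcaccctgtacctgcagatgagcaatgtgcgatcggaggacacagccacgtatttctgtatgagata
Igkv14-126: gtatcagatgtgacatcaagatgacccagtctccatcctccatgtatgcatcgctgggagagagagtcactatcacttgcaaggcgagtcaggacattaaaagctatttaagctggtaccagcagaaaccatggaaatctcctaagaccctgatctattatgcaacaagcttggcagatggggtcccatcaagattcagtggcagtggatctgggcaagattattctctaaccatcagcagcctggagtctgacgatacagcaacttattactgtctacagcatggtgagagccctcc

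The other 18 lymphomas were led by other variable genes. Their leading heavy-chain gene held 26.7% (Lung.co.T30) to 99.9% (MLN.cr.T1) and the leading kappa gene 20.2% (Lung.hv.T7) to 98.3% (Lung.co.T34) of the TPM of its chain. In control samples the leading genes held 4.97% to 7.82%, apart from cr LPS (31.3% in Ighv1-55 and 40.8% in Igkv12-89) and the heavy chain of hv LPS (12.5% in Ighv1-9). Lung.co.T34 and Lung.co.T30 shared the leading heavy-chain gene Ighv1-52, but Lung.co.T30 was led by the kappa gene Igkv6-15. Lung.co.T34 and PLN.hv.T15 shared the leading kappa gene Igkv1-117 with MLN.cr.T35, and it also led in cr resting and in wt, co and hv LPS. Such sharing was not particular to these lymphomas. Lung.hv.T1 and Lung.hv.T14 shared both Ighv1-64 and Igkv1-135, MLN.cr.T1 was led by Ighv1-64 too, and PLN.hv.T8 and MLN.cr.T20 shared Ighv6-3. Of 6 variable genes of well-known B-1a antibodies, 4 were tested against resting cells and 2 were lower in lymphomas: Igkv4-91 at -3.88 ± 0.60 and Ighv7-1 at -2.57 ± 0.35 (limma, adjusted p = 2.9e-05 and 4.1e-06). Of all tested genes, 17.4% were lower. Values of near-identical variable genes are uncertain, since reads that match several are divided between them.

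**Figure D5:**
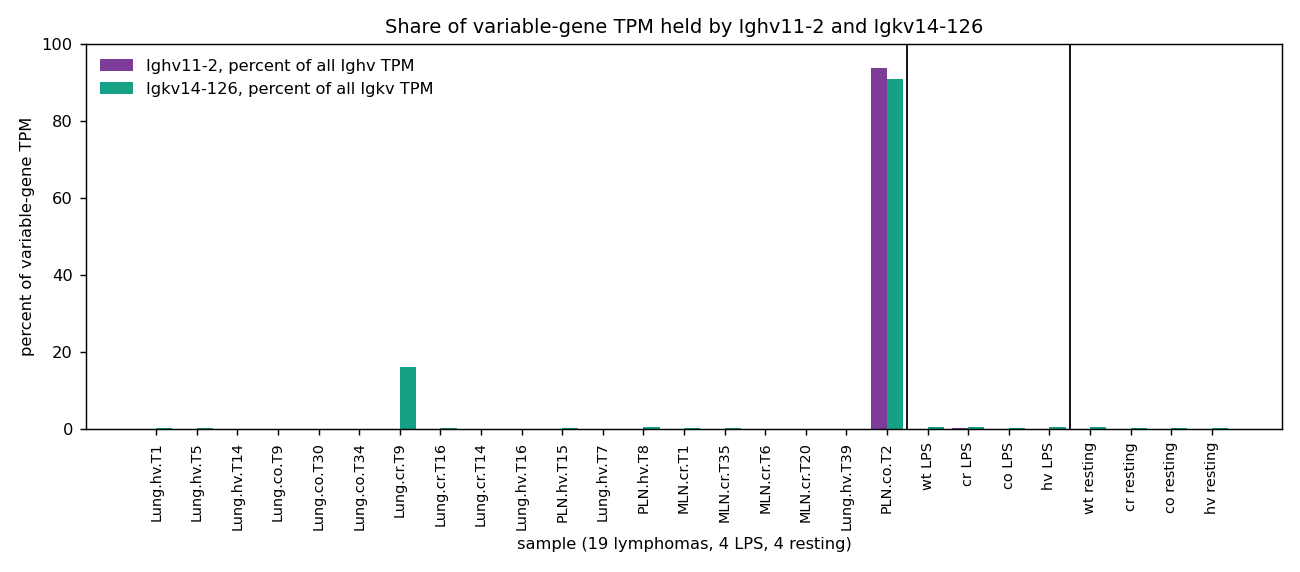
Bars give the percent of heavy-chain variable-gene TPM in Ighv11-2 and of kappa variable-gene TPM in Igkv14-126 for 19 lymphomas, 4 LPS and 4 resting samples. PLN.co.T2 stands alone with 93.8% and 91.0%, and Lung.cr.T9 has 16.2% in Igkv14-126.

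The genes most like each member over the 19 lymphomas were those with the highest Pearson r of log2(TPM + 1) among about 8474 genes with a mean of 5 TPM or more. They are a description without a test, and for Il10, Ctla4, Cd5 and Cd9 they rest on the few lymphomas that stand apart. For Il10 these were Cyp11a1 (r = 0.95), Fah (0.94) and Tmem154 (0.94). For Ctla4 they were Inpp4b (0.91), Ccr1 (0.91) and Ebi3 (0.89). For Cd5 they were Cblc (0.92), Pstpip2 (0.90) and Tgtp1 (0.90), and for Cd9 Igtp (0.96), Zbtb38 (0.95) and Irgm2 (0.94), of which Igtp, Irgm2 and Tgtp1 belong to the interferon-inducible GTPases. For Bhlhe41 they were Hivep1 (0.85), Nid1 (0.81) and Skil (0.81), and for Bhlhe40 Pik3ap1 (0.72), Inpp5f (0.71) and Atp2b4 (0.71). For Spn they were Mob3a (0.91), Rinl (0.89) and H2-DMa (0.87), and for Plac8 Itgal (0.84), Slc37a2 (0.82) and Pdia4 (0.79).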

How the data were processed

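The deposited table held TPM per Ensembl transcript for 88198 transcripts, made by the authors with kallisto 0.43 on mm10 (GRCm38), per the submitters' processing notes; no source used here gives the strand setting. Libraries were stranded and depleted of ribosomal RNA, per the labels' protocols. Transcript TPM were summed to genes; 740 of 30735 genes had no symbol. For each comparison, limma 3.58.1 (R 4.3.3; trend and robust) was run on log2(TPM + 1) of genes reaching 1 TPM in 4 or more of its samples, with p-values adjusted by Benjamini-Hochberg at 0.05; this scale understates changes of low genes. Fits were tested on simulated data. Read pairs were recovered from TPM and effective length for depth only (61.8 to 75.9% of low values whole within 0.02); 3 read pairs set the floor, which covers counting error only. Genotype numbers did not pair samples. Named list genes were up to 4 called ones with the largest change against resting cells in each list, and the 3 most similar genes per member. Members and lists were chosen with earlier results of these data known. Figures used matplotlib 3.10.9.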

Additional observations from a re-analysis of the deposited data

Results flagged for a closer look

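A sample far from the rest of its group was looked for in 40 groups of 4 to 7 samples (8 genes in resting, LPS, hv, cr and co samples). The limits used flag about 1 in 20 groups by chance if values follow a normal distribution. They were applied to TPM without logs, which are skewed, so the chance rate here is not known. There were 5 flags, each for the highest sample of its group. Cd5 in the co resting sample, at 4.79 TPM, was far above the next resting sample at 1.16 TPM. PLN.hv.T15 was far above the other hv lymphomas in Cd5, at 3.73 TPM beside 1.58 TPM, and in Ctla4, at 46.1 TPM beside 10.3 TPM. PLN.hv.T8 stood apart among hv lymphomas in Il10, at 43.4 TPM beside 4.65 TPM. Lung.cr.T14 was the highest cr lymphoma in Cd5, at 2.05 TPM beside 0.837 TPM.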

How the results depend on the processing

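Bhlhe41 stayed higher in lymphomas, and Bhlhe40 lower than in resting cells, past the threshold under every alternative run. Without the libraries rich in Gm10800, 2746 genes were called against resting cells, and 433 genes and 1 member against LPS samples. With separated names, 1 member was called against LPS samples, and with all 27 samples in 1 fit, 1 member in LPS against resting. Leaving out 1 sample gave 2749 to 4607 genes against resting cells, 821 to 2004 genes and 1 to 2 members against LPS samples. For lines and sites it gave 0 to 1 genes for hv against cr, co against hv and mesenteric node against lung, 0 to 2 for co against cr, and 0 to 12 for peripheral node against lung (12 without PLN.co.T2). The 9 lung lymphomas with joined names gave 1 gene for hv against cr, 4 for co against cr and 3 for co against hv. Without a filter, co against hv gave 1 gene and peripheral node against lung 5.

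Signs of small differences changed, none of them called. Against resting cells Cd5 was at -0.36 with a pseudocount of 0.1, -0.045 after removing repeat-like, haemoglobin and immunoglobulin genes, -0.097 without the Gm10800 libraries, and -0.13 to 0.50 without 1 sample. Ctla4 was at -0.51 and -0.077 in the first pair of settings, -0.26 with joined names, and -0.21 to 0.32 without 1 sample. Il10 was at -0.86 with a pseudocount of 0.1, -0.19 with joined names, and -0.059 to 0.38 without 1 sample. In LPS against resting, Bhlhe41 was at -0.38 without the Gm10800 libraries and -0.11 to 0.48 without 1 sample, and Cd9 at -0.43 to 0.13. Without the Gm10800 libraries Il10 was not tested, since too few of the samples left reached 1 TPM. It had 29.5 and 12.6 TPM in wt and co LPS, and 1.24, 0.547 and 0.735 TPM in cr, co and hv resting. The cause was not tested.

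With genotype as a replicate block, 7250 genes and 4 members were called in LPS against resting, beside 6981 and 4; same-genotype samples deviated together with correlations of 0.058 (wt), 0.22 (cr), 0.34 (co) and 0.063 (hv), so the genotypes were not taken as pairs. Correlations over all 19 lymphomas were planned but not run, because Il10 divides them. Il10 lay under the floor of 3 read pairs in 10 lymphomas, and Cd5 and Ctla4 in 2 each, so levels among those cannot be ordered at this depth.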
